A study of Mus musculus with 13 samples.

Results

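The neurotrophins Bdnf and Ntf3, their receptors Ntrk2, Ntrk3 and Ngfr, and the secreted or surface proteins Nrn1 and Vgf were followed in single excitatory neurons of the mouse claustrum. The members were named by symbol and not by their values. Of the 7 genes, 6 were analysed, among 23427 genes with a row in the count tables, and Ngfr is not analysed here. Cells were kept where they held at least 1 count of both Snap25, a presynaptic fusion protein of neurons, and Slc17a7, a vesicular glutamate transporter of excitatory neurons, which left 1011 of 1112 harvested cells. Levels were compared in cells at 200 CPM (counts scaled to library size) or more of Synpr, a synaptic vesicle protein that marks the claustrum, against lower cells, and in cells at 20 CPM or more of Slc30a3, a zinc transporter of synaptic vesicles, against lower cells. They were also compared between cells labeled by retrograde beads.

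All 4 animals were mature male C57BL/6 mice with no genetic manipulation. In the first mouse, called the blindly sampled mouse, an rAAV2-retro-CAG-GFP virus injected into the anterior cingulate cortex served to find the claustrum for microdissection, and the 238 kept cells were picked without regard to it. Projection mice 1, 2 and 3 had 224, 220 and 329 kept cells. In them, green retrobeads in the lateral entorhinal cortex (LEC) and red retrobeads in the retrosplenial cortex (RSC) marked cells by their target. Other cells of these mice carry no projection label and are called unlabeled. The paper divides its retained cells into blindly selected, LEC-projecting and RSC-projecting cells, so unlabeled cells fall in the first group. It does not say that they lacked beads. An unlabeled cell may still project to either target, since beads fill only part of the cells that do. Cells were captured by hand over 13 plates, the libraries tag the 3′ end of transcripts, and each projection label within a mouse filled 1 plate except in projection mouse 3, so plate and label cannot otherwise be told apart.

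Neurotrophins are secreted as precursors, cleaved to dimers, and act through Trk receptor tyrosine kinases and, more broadly, through the p75 receptor that Ngfr encodes. Brain-derived neurotrophic factor (Bdnf) binds TrkB, the product of Ntrk2, and neurotrophin 3 (Ntf3) binds TrkC, the product of Ntrk3. In the cortex Bdnf transcription follows neuronal activity, and pyramidal neurons carry the protein down their axons as well as into dendrites. Neuritin (Nrn1), a small protein on a lipid anchor, and Vgf, a granule precursor of several neuropeptides, were both found as genes induced by activity or neurotrophins.

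Bdnf is one locus with many promoters. In the GENCODE annotation of GRCm38 the gene lies at chr2:109674700-109727007 on the plus strand, with 11 transcripts that begin at 9 places and share 1 3′ end, so that a 3′ tag counts all of them together and says nothing of which promoter was used. Its exons overlap Gm45346 on the minus strand. RefSeq lists 7 start sites, and 2 of the 7 windows around them hold the pattern TNACGTNA (N is any base), which takes in the cAMP response element bound by CREB, a factor that neuronal activity switches on. The pattern is its own reverse complement, so a search of one strand covers both. It occurs in 4.49% of 32851 windows of the same length around all RefSeq starts. The 250 bases before those start sites are printed because they are the stretches of Bdnf with such a match, each on the plus strand of GRCm38.p6 and with the match in capitals.
Bdnf start site 1, chr2:109674450-109674699: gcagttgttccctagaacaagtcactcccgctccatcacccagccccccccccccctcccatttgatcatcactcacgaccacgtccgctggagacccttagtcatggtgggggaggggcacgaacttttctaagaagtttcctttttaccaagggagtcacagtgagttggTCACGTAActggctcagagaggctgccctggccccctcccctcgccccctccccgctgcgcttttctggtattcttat
Bdnf start site 3, chr2:109692186-109692435: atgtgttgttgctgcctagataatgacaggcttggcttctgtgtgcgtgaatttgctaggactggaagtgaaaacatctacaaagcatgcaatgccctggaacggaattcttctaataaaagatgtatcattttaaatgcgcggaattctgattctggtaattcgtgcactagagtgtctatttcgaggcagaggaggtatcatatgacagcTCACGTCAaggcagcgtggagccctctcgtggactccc
The first match is TCACGTAA and begins at position -78 from the start, and the second is TCACGTCA at position -38. A match of letters is not evidence of binding in these cells. RefSeq windows were matched for 4 of the 7 genes, Bdnf, Ntf3, Ntrk2 and Ngfr, and not for Ntrk3, Nrn1 and Vgf, and those of Ntf3, Ntrk2 and Ngfr held no match.

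The receptors were counted as genes and not as isoforms, which matters because both loci make receptors with and without a kinase. Ntrk2 lies at chr13:58806569-59133970 on the plus strand and Ntrk3 at chr7:78175959-78738012 on the minus strand of GRCm38. The coding sequence of transcript Ntrk2-201 has 2463 bases and that of Ntrk2-202 has 1428, and they are the same for their first 1394 bases. The stretches where they part are printed to show where 1 gene count covers different proteins, with the bases particular to each transcript in capitals.
Ntrk2-201, longer coding sequence: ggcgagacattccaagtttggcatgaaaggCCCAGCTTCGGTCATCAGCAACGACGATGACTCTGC
Ntrk2-202, shorter coding sequence: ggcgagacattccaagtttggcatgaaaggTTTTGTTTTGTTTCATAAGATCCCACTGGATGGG
The shorter transcript adds only 34 coding bases after the split, and the annotated 3′ ends of the transcripts are 196.9 kb apart. For Ntrk3 the shared part is 1585 bases, of 2475 in Ntrk3-201 and of 1836 in Ntrk3-202, with 3′ ends 124.7 kb apart.
Ntrk3-201, longer coding sequence: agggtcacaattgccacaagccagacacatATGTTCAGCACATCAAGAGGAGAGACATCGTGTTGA
Ntrk3-202, shorter coding sequence: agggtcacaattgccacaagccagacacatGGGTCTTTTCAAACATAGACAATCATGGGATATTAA
These transcripts end far enough apart for 3′ tags to fall at different places, but the deposited counts sum them, so no value for Ntrk2 or Ntrk3 separates kinase from truncated receptors.

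Counts were summed over the cells of each class in each mouse and scaled to CPM with edgeR's TMM factors, and each value below is such a summed level unless a per-cell value is named. Levels are compared between classes and not between genes. The kept cells had a median of 26023 counts in the blindly sampled mouse and 151387 counts over the projection mice. The study's methods put 3 plates on a mid-output flow cell and the rest on a high-output flow cell with another read length. They do not name the plates. The blindly sampled mouse also filled 3 plates, so its mouse and run may be impossible to tell apart. The deepest cell held 495406 counts and the shallowest 434. Snap25 ranged from 2945 to 5971 CPM and Slc17a7 from 117.9 to 174.8 CPM over the 8 Synpr sums, as the choice of cells requires. Markers of other cell types were present. The summed CPM of 6 astrocyte genes was 137.2 to 165.7 in Synpr-high and 78.49 to 375.3 in Synpr-low sums, that of 5 oligodendrocyte genes 27.43 to 333.1 and 50.47 to 559.2, that of 5 interneuron genes 0.0 to 141.1 and 0.0 to 31.87, and that of 8 deep cortical genes 17.79 to 32.85 and 128.8 to 650.8. Their part in the results below was not tested, except where values without the deep cortical cells are given.

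Bdnf was the member that differed most between Synpr-high and Synpr-low cells. Its level in the 438 Synpr-high cells was 1936 CPM in the blindly sampled mouse and 1102, 1153 and 1356 CPM in projection mice 1 to 3. In the 573 Synpr-low cells of the same mice it was 453.7, 337.7, 400.4 and 631.2 CPM. The lowest Synpr-high mouse stood above the highest Synpr-low mouse, and Bdnf was 2.147 to 4.268 times higher within each mouse. The log2 fold change was 1.60 (SE 0.22, n = 4 mice, edgeR adjusted p = 0.00153), from means of 1387 ± 382.4 and 455.8 ± 126.2 CPM (SD). It passed the test under all 16 alternatives, with adjusted p from 3.5e-11 to 0.0177. In this comparison 8.82% of the 13641 genes tested passed.

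Both more cells with Bdnf counts and more counts per cell went into this difference. At least 1 Bdnf count was found in 93.38% of Synpr-high cells (exact 95% interval 90.63 to 95.52) and in 76.44% of Synpr-low cells (72.75 to 79.86). With every cell thinned to 20000 counts and the class limits applied to the thinned counts, which left 927 cells, the shares were 91.02% (87.83 to 93.60) and 65.83% (61.55 to 69.92). These intervals cover counting error only. The thinned share was 87.64 to 98.82% over mice in Synpr-high cells and 49.61 to 76.42% in Synpr-low cells. The median Synpr-high cell held 1000 CPM of Bdnf after thinning and the median Synpr-low cell 150 CPM. Bdnf counts were also unevenly spread within a mouse, with the 10% of cells that had most holding 42.3 to 55.7% of them, while for Ntrk2 such cells held 29.2 to 32.6%.

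The Slc30a3 limit sorted Bdnf the opposite way. The limits split largely the same cells in mirror image. Of the 379 Slc30a3-high cells 359 were Synpr-low, and of the 438 Synpr-high cells 418 were Slc30a3-low. Opposite signs for the limits are thus not independent results, here or for other genes. The 379 Slc30a3-high cells had 807.3, 435.5, 426.1 and 708.7 CPM in the same order of mice, and the 632 Slc30a3-low cells had 1331, 826.1, 905.4 and 1173 CPM. The sums did not overlap, and every mouse was lower on the Slc30a3-high side. The log2 fold change was -0.83 (SE 0.23, adjusted p = 0.091), which missed the threshold, whereas with mouse as a block it was -0.87 (adjusted p = 0.00042). Without the cells with deep cortical genes, described below, it was -1.07 and passed (adjusted p = 0.036). Astrocyte genes summed to 30.54 to 109.7 CPM in Slc30a3-high and 160.0 to 375.3 CPM in Slc30a3-low sums, without overlap. Deep cortical genes summed to 17.14 to 57.03 and 99.81 to 560.7 CPM, also without overlap. Oligodendrocyte genes leaned the other way, at 64.58 to 934.7 and 26.19 to 249.5 CPM. The part of these markers was not tested, except by leaving out the deep cortical cells. Of the 13495 genes tested, 3.65% passed, and 7.74% with the block, and the corresponding share for the Synpr limit with the block was 14.6%.

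Since both limits put the cells low in both genes on their lower side, the limits were crossed. This gave 418 Synpr-only cells, 359 Slc30a3-only cells, 214 cells with neither and 20 with both. On average Bdnf was lower in each of the first 3 classes in turn, at 1396 ± 375.6, 535.0 ± 159.4 and 338.7 ± 171.0 CPM (SD, n = 4 mice). Synpr-only sums were 1934, 1123, 1154 and 1373 CPM, Slc30a3-only sums 658.5, 411.1, 384.2 and 686.3 CPM, and sums of neither 135.5, 260.4, 460.6 and 498.3 CPM. Synpr-only cells stood above both other classes in every mouse, and the latter pair overlapped.

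Against Slc30a3-only cells the Synpr-only level was higher by 1.38 on the log2 scale (SE 0.36, adjusted p = 0.0393), and 4.76% of 14329 genes passed. That call was lost without projection mouse 1, 2 or 3 (adjusted p = 0.14, 0.20 and 0.13), at log2 fold changes of 1.37, 1.34 and 1.54. It was also lost after thinning (0.067), and it held with the block (0.014). Against neither, Bdnf was higher by 2.04 (SE 0.37, adjusted p = 0.00339), where 5.67% of genes passed, and it passed under all 18 alternatives. Slc30a3-only cells did not pass against neither (log2 fold change 0.66, adjusted p = 0.743), where 0.461% of genes did. In the 2 mice with at least 5 cells above both limits, Bdnf was at 1858 and 791.9 CPM. With the block, 7.27%, 8.74% and 0.977% of genes passed in these 3 comparisons in the order given.

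**Figure D1:**
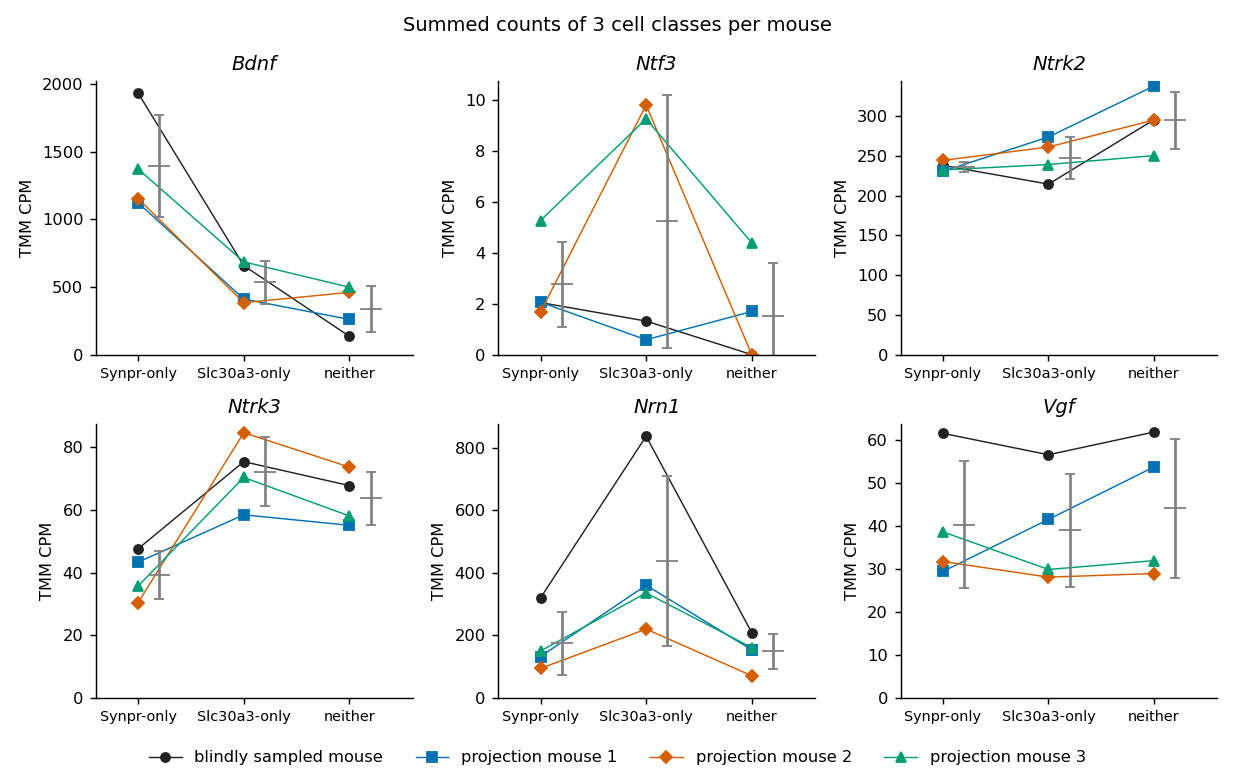
Summed level in TMM CPM (y axes, linear, from 0) of the 6 members in Synpr-only, Slc30a3-only and neither cells, with 1 line per mouse and the mean ± SD over 4 mice in grey. Bdnf is highest in Synpr-only cells of every mouse, Nrn1 is highest in Slc30a3-only cells of every mouse, Ntrk3 is lowest in Synpr-only cells of every mouse, and the classes overlap for Vgf.

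The class low in both genes was mixed. Slc30a3, Nnat and Spon1, taken as markers of the claustrum shell, the outer of the paper's subtypes, summed to 206.6 to 1589 CPM in it. The same genes summed to 963.2 to 1910 CPM in Slc30a3-only and 29.24 to 81.69 CPM in Synpr-only sums. Slc30a3 itself averaged 1.32 CPM in the neither class. The part of such cells in comparisons with neither was not tested. Cells at 20 CPM or more of Ctgf, Sla or Foxp2, genes of deep cortical layers, were 133 of the 1011 kept cells (13.2%) and 98 of the 214 cells with neither (45.8%), against 5.9% of Synpr-high cells. Summed without TMM scaling, those cells held 165.9, 96.3, 87.99 and 872.9 CPM of Bdnf and 109.1, 67.08, 20.09 and 81.4 CPM of Nrn1. Projection mouse 3 was far higher than the others for Bdnf there. Not all of those 133 cells were of the neither class. In the same order of mice, 4 of 38, 4 of 30, 2 of 25 and 16 of 40 were Synpr-high. The part of this mix in their Bdnf level was not tested. Without the cells with deep cortical genes, the neither class held 397.2 to 827.9 CPM of Bdnf and 138.9 to 599.7 CPM of Nrn1. The Slc30a3-only class was then no longer above it for Bdnf (log2 fold change -0.14), while Synpr-only cells still passed against it.

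Ntf3 was close to the detection floor. The gene lies at chr6:126101412-126166910 on the minus strand. It had 6, 36, 19 and 139 counts in the Synpr-high sums, at 1.87, 1.96, 1.55 and 5.01 CPM, and 3, 21, 147 and 222 counts in the Synpr-low sums, at 0.80, 1.08, 6.85 and 7.90 CPM. The sums overlapped, and the level was higher on the Synpr-high side in 2 mice and lower in the other two. The difference did not pass (log2 fold change -0.68, SE 0.77, adjusted p = 0.742). A count was found in 4.11% of Synpr-high cells (2.45 to 6.42) and 5.58% of Synpr-low cells (3.85 to 7.79), or 3.16 and 4.66% after thinning. In every mouse 10% of the cells held 100% of the Ntf3 counts, and the fullest single cell had 40.

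Among the receptors, Ntrk3 differed with the Synpr limit and Ntrk2 did not pass. Ntrk3 stood at 49.87, 45.85, 30.02 and 35.39 CPM in Synpr-high sums and at 73.04, 56.29, 80.29 and 66.54 CPM in Synpr-low sums. The classes did not overlap, and Ntrk3 was lower in Synpr-high cells of 4 of 4 mice. The log2 fold change was -0.78 (SE 0.19, adjusted p = 0.0308, and 0.024 with the block). It lost the threshold without projection mouse 1, 2 or 3 (adjusted p = 0.060, 0.17 and 0.18), after thinning (0.054) and in unlabeled cells alone (0.057), and passed in 11 of 16 alternatives. In thinned cells a count was seen in 33.25% of Synpr-high (28.72 to 38.03) and 41.94% of Synpr-low cells (37.64 to 46.34).

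By the Slc30a3 limit Ntrk3 ran the other way from Bdnf, at 76.54, 62.11, 81.03 and 68.18 CPM in Slc30a3-high sums against 54.87, 46.88, 45.24 and 40.18 CPM. It was higher in 4 of 4 mice without overlap, at a log2 fold change of 0.62 (SE 0.15), and lay just outside the threshold at adjusted p = 0.0518. With the block it passed (0.019), as it did without the blindly sampled mouse (0.037). Over the crossed classes, Synpr-only cells held 39.25 ± 7.69 CPM, Slc30a3-only cells 72.22 ± 10.92 CPM and neither 63.66 ± 8.61 CPM (SD, n = 4). Synpr-only cells were lower than Slc30a3-only cells by a log2 fold change of -0.88 (SE 0.22, adjusted p = 0.0267). That call was lost without projection mouse 2 or 3 (0.28 and 0.22) and under 6 of the other alternatives. Against neither, Synpr-only cells were at -0.70 (adjusted p = 0.0743), which passed without the blindly sampled mouse (0.045).

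Ntrk2, the receptor of Bdnf, was nearly level across classes. It stood at 238.4, 231.4, 244.7 and 231.2 CPM in Synpr-high and 249.1, 300.3, 267.0 and 239.8 CPM in Synpr-low sums, a log2 fold change of -0.16 (SE 0.10, adjusted p = 0.445). For the Slc30a3 limit the difference was -0.03 (SE 0.10, adjusted p = 0.979). A count was found in 94.52% of Synpr-high and 93.37% of Synpr-low cells, and in 86.65 and 88.54% after thinning. The widest gap was between Synpr-only cells and neither, at 236.2 ± 6.26 and 294.7 ± 35.8 CPM, where the sums did not overlap but the test did not pass (log2 fold change -0.32, SE 0.14, adjusted p = 0.224, and 0.086 with the block).

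Nrn1 followed the Slc30a3 limit. The gene lies at chr13:36725361-36735131 on the minus strand and shares exon sequence with Fars2 on the plus strand. The counting strand is not given in the sources used here, so reads of that overlap cannot be assigned with certainty. Nrn1 was at 843.5, 356.3, 217.2 and 326.9 CPM in Slc30a3-high sums and 283.6, 137.9, 85.25 and 150.7 CPM in Slc30a3-low sums. Every mouse was 2.169 to 2.974 times higher on the Slc30a3-high side, but the mice differed from each other by more than that, with the blindly sampled mouse above the others in both classes. Without a mouse term the log2 fold change was 1.41 (SE 0.44, adjusted p = 0.141), and with mouse as a block it was 1.35 (SE 0.08, adjusted p = 0.00018). It also passed without the blindly sampled mouse (1.27, adjusted p = 0.026).

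The same held against Synpr. Nrn1 was 357.5, 138.0, 100.9 and 150.8 CPM in Synpr-high sums and 591.0, 261.5, 174.0 and 286.9 CPM in Synpr-low sums, or 0.525 to 0.605 times the Synpr-low level within each mouse. The log2 fold change was -0.82 (SE 0.44, adjusted p = 0.354), and -0.84 with the block (SE 0.07, adjusted p = 0.00019). Without the blindly sampled mouse it was -0.89 (0.027). Fars2 stood at 29.26 ± 2.74 CPM in Synpr-high and 29.02 ± 5.25 CPM in Synpr-low sums.

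In the crossed classes Slc30a3-only cells had the most Nrn1, at 836.5, 360.0, 219.7 and 335.3 CPM, against 319.2, 131.9, 93.99 and 149.7 CPM in Synpr-only cells and 208.6, 153.4, 70.59 and 160.7 CPM in neither. Slc30a3-only cells were the highest class in every mouse. Synpr-only against Slc30a3-only cells gave a log2 fold change of -1.34 (adjusted p = 0.131, and 8.6e-05 with the block), and Slc30a3-only against neither gave 1.56 (0.227, and 0.0006 with the block). Synpr-only cells and neither were not told apart (0.23, adjusted p = 0.931), and that difference turned to -0.75 without the cells with deep cortical genes. Per cell and after thinning, 87.83% of Slc30a3-high cells (83.90 to 91.08) and 65.64% of Slc30a3-low cells (61.62 to 69.49) held a count, with median cells at 300.0 and 100 CPM.

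Vgf did not pass for either limit. It lies at chr5:137026392-137033351 on the plus strand. Its sums were 61.71, 28.61, 30.67 and 37.63 CPM in Synpr-high and 59.23, 46.68, 27.91 and 30.12 CPM in Synpr-low cells, with the classes overlapping and the blindly sampled mouse highest in both. The log2 fold changes were -0.05 (SE 0.31, adjusted p = 0.971) for Synpr and -0.12 (SE 0.29, adjusted p = 0.967) for Slc30a3. After thinning a count was seen in 38.11% of Synpr-high and 34.56% of Synpr-low cells.

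Over the 6 members, 2 passed for the Synpr limit, Bdnf upwards and Ntrk3 downwards, beside 8.82% of all genes. For the Slc30a3 limit 0 passed by edgeR, beside 3.65%. There 3 members had an unadjusted p under 0.05, DESeq2 called 2 and limma 0. Of the 13495 genes tested, 1910, 967 and 558 did so in that order. With the block 3 members passed for Synpr and 3 for Slc30a3, with Nrn1 joining Ntrk3 and Bdnf, beside 14.6 and 7.74% of all genes.

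**Figure D2:**
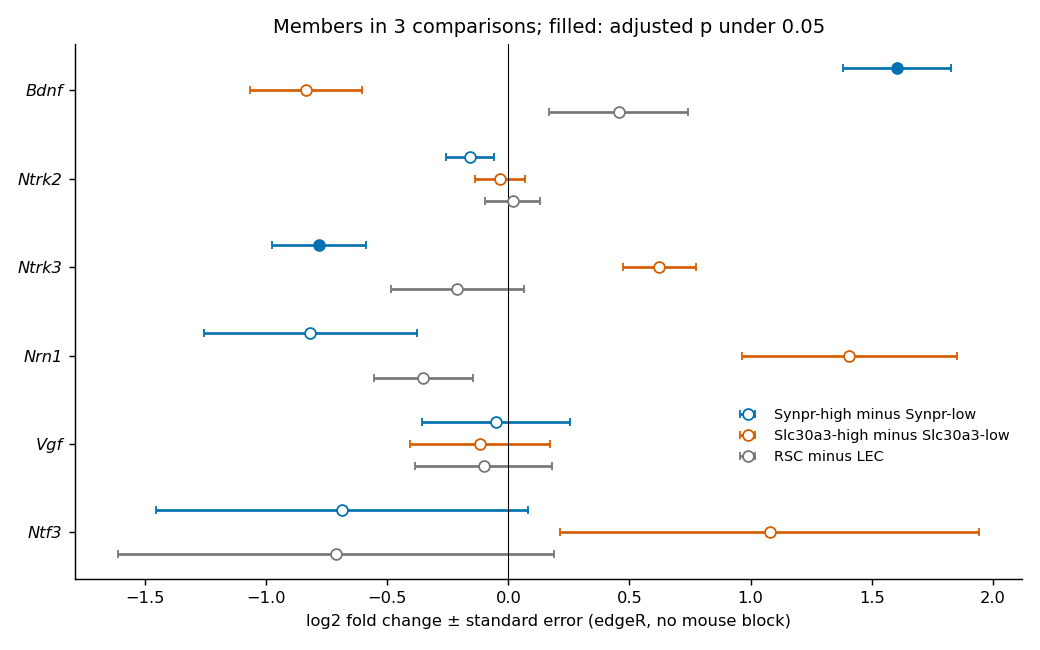
Log2 fold change ± standard error of the 6 members from edgeR without a mouse block, for Synpr-high minus Synpr-low (blue) and Slc30a3-high minus Slc30a3-low cells (orange) of 4 mice and RSC-labeled minus LEC-labeled cells (grey) of 3 mice. Filled points passed at adjusted p under 0.05, which only Bdnf and Ntrk3 did for Synpr, and Bdnf, Ntrk3 and Nrn1 lie on opposite sides of 0 for the Synpr and the Slc30a3 limit. Both limits split largely the same cells, so these signs are not independent.

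Cells labeled from the RSC and from the LEC were largely of different classes. In projection mice 1 to 3, 81.2, 80.0 and 92.9% of RSC-labeled cells were Synpr-high, against 22.5, 14.5 and 12.3% of LEC-labeled and 22.5, 28.4 and 32.6% of unlabeled cells. Slc30a3-high cells made up 20.3, 10 and 7.1% of RSC-labeled and 51.2, 71.1 and 69.2% of LEC-labeled cells. These shares bear on every comparison of the labels below. Astrocyte genes summed to 158.0 to 205.9 CPM in RSC-labeled and 48.49 to 102.6 CPM in LEC-labeled sums, and interneuron genes to 6.92 to 200.2 CPM and 0.16 to 0.89 CPM. Neither pair overlapped, and their part in the label differences was not tested.

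Despite that, no member passed between the labels. Bdnf was at 845.9, 936.5 and 1243 CPM in RSC-labeled cells, 836.6, 555.3 and 815.3 CPM in LEC-labeled cells and 378.3, 682.7 and 984.0 CPM in unlabeled cells. RSC-labeled cells were higher than LEC-labeled cells in 3 of 3 mice, by as little as 1.011 and as much as 1.687 times, and the log2 fold change was 0.46 (SE 0.29, adjusted p = 0.506), where 3.95% of 13976 genes passed. Nrn1 ran the other way, at 170.4, 147.2 and 195.6 CPM in RSC-labeled and 243.5, 165.1 and 246.1 CPM in LEC-labeled cells (log2 fold change -0.35, SE 0.21, adjusted p = 0.463). It was lower in RSC-labeled cells of 3 of 3 mice.

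The receptors, Vgf and Ntf3 overlapped between RSC-labeled and LEC-labeled cells. Ntrk3 averaged 47.54 ± 14.36 and 55.05 ± 9.97 CPM (SD, n = 3), Ntrk2 245.5 ± 12.4 and 242.6 ± 10.15 CPM and Vgf 34.45 ± 7.68 and 37.09 ± 2.65 CPM. Ntf3 was at 2.78, 2.16 and 6.34 CPM in RSC-labeled and 0.34, 9.17 and 9.11 CPM in LEC-labeled cells. Of the 6 members 0 passed by edgeR, 0 had an unadjusted p under 0.05, and DESeq2 and limma called 0. Of the 13976 genes tested, 552, 2290, 1145 and 854 did so in that order.

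Against unlabeled cells, RSC-labeled cells were higher for Bdnf by 0.56 (SE 0.29, adjusted p = 0.446), where 1.63% of genes passed. LEC-labeled cells were at 0.11 (SE 0.29, adjusted p = 0.987), where 0.0% of genes passed by edgeR, with 1079 genes at an unadjusted p under 0.05, 114 called by DESeq2 and 20 by limma. Among the members, Ntrk2 had the lowest unadjusted p by edgeR (0.041), beside the 1079 genes under 0.05. It was at 248.1, 248.8 and 230.9 CPM in LEC-labeled and 325.9, 292.5 and 252.6 CPM in unlabeled cells (log2 fold change -0.26, SE 0.11, adjusted p = 0.625).

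**Figure D3:**
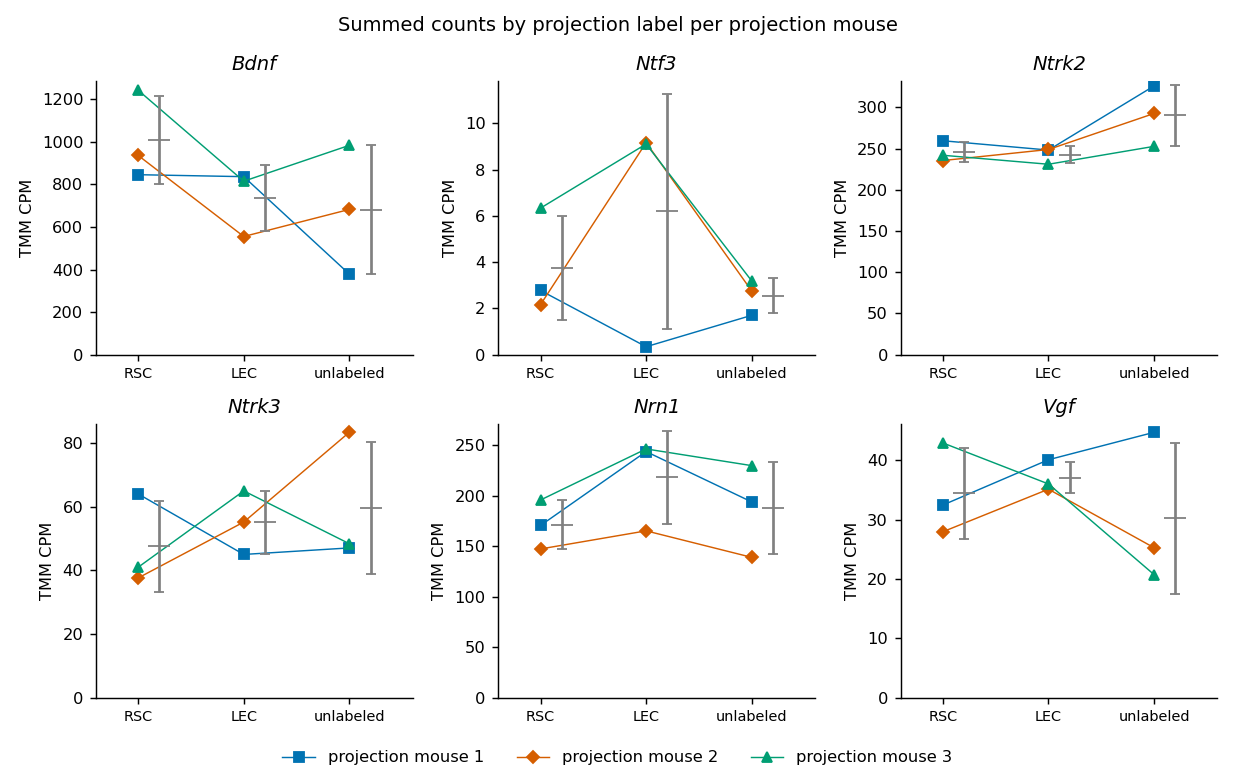
Summed level in TMM CPM (y axes, linear, from 0) of the 6 members in RSC-labeled, LEC-labeled and unlabeled cells of the projection mice, with 1 line per mouse and the mean ± SD over 3 mice in grey. No member passed between the labels. Bdnf is higher in RSC-labeled than LEC-labeled cells of each mouse, nearly level in projection mouse 1, and Nrn1 is lower.

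Within a Synpr class, Bdnf was not higher in RSC-labeled than LEC-labeled cells of every mouse, as it was over all cells. The LEC-labeled Synpr-high sums rest on 18, 11 and 16 cells in projection mice 1 to 3. Among Synpr-high cells, RSC-labeled sums held 927.2, 1083 and 1273 CPM of Bdnf and LEC-labeled sums 1623, 1101 and 1252 CPM (log2 fold change -0.28, SE 0.26, adjusted p = 1.0). Among Synpr-low cells, RSC-labeled sums held 308.7, 349.6 and 618.1 CPM and LEC-labeled sums 487.2, 436.5 and 726.4 CPM (-0.37, SE 0.26, adjusted p = 0.645). RSC-labeled cells were thus lower than LEC-labeled cells in 2 of 3 mice among Synpr-high and in 3 of 3 among Synpr-low cells. All RSC-labeled cells together were higher in 3 of 3. Among Synpr-high cells, projection mice 2 and 3 were nearly level, and the log2 fold change was 0.003 without projection mouse 1. None of these label differences passed, and in every mouse both Synpr-high sums stood above both Synpr-low sums. For Bdnf the difference in label effect between the Synpr classes was 0.10 on the log2 scale (SE 0.36, edgeR interaction adjusted p = 0.989). Over the members the interaction adjusted p ran from 0.346 to 0.999. The lowest was that of Ntf3 (7.54, SE 2.33, unadjusted p = 0.0063), which was close to the detection floor. The share of all genes passing this test is not given here, so it says nothing particular to the members.

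Nrn1 within Synpr-low cells was at 395.0, 281.4 and 600.1 CPM in RSC-labeled and 280.7, 173.4 and 266.5 CPM in LEC-labeled cells, higher in 3 of 3 mice and the reverse of the order over all cells. The log2 fold change was 0.82 (SE 0.27, adjusted p = 0.27). These RSC-labeled Synpr-low sums rest on 12, 14 and 8 cells. Within Synpr-high cells Nrn1 was at 139.7 ± 30.8 and 131.8 ± 16.2 CPM (0.08, adjusted p = 1.0). In the within-class fit, 0.0% of 12410 genes passed among Synpr-high cells (508 at an unadjusted p under 0.05, 16 by DESeq2, 0 by limma) and 0.193% among Synpr-low cells.

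In projection mouse 3 a single plate held both labels. The plate values here were summed without TMM scaling. On it, Synpr-high cells had 1156 CPM of Bdnf in 29 RSC-labeled cells and 1351 CPM in 10 LEC-labeled cells, and Synpr-low cells had 637.0 CPM in 5 RSC-labeled cells and 606.4 CPM in 34 LEC-labeled cells. Between plates of that mouse, LEC-labeled Synpr-low cells stood at 606.4 and 822.6 CPM, and RSC-labeled Synpr-high cells at 1156 and 1316 CPM. LEC-labeled Synpr-high cells stood at 1351 CPM in 10 cells of the shared plate and 817.2 CPM in 6 cells of the other. Plates with the same label thus differed as well. On that other plate 80 LEC-labeled Synpr-low cells held 822.6 CPM, so the Synpr classes were level for Bdnf there.

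**Figure D4:**
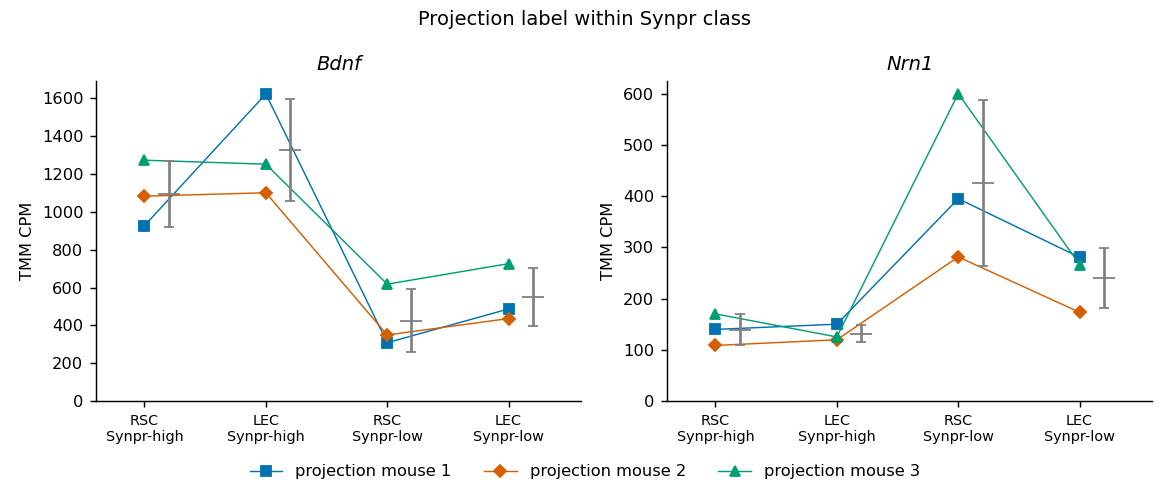
Summed level in TMM CPM (y axes, linear, from 0) of Bdnf and Nrn1 in RSC-labeled and LEC-labeled cells above and below the Synpr limit, with 1 line per projection mouse and the mean ± SD over 3 mice in grey. For Bdnf both Synpr-high sums lie above both Synpr-low sums in every mouse, and Nrn1 is highest in RSC-labeled Synpr-low cells of every mouse.

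Within Synpr-low cells, those with a Bdnf count also held more Nrn1. This class pools Slc30a3-only cells and neither. Their summed levels averaged 535.0 and 338.7 CPM for Bdnf and 437.9 and 148.3 CPM for Nrn1. The part of that mix in the values below was not tested. After thinning, mean Nrn1 was 851.0 CPM in 49 cells with Bdnf and 266.2 CPM in 37 without in the blindly sampled mouse. In projection mouse 1 it was 414.1 CPM in 64 cells and 155.4 CPM in 65, in projection mouse 2 180.9 CPM in 94 and 127.6 CPM in 29, and in projection mouse 3 311.0 CPM in 132 and 204.4 CPM in 45. All 4 mice had the same order. Cells with deep cortical genes were more frequent among those without Bdnf, at 21 of 37, 25 of 65, 12 of 29 and 11 of 45, than among those with it, at 4 of 49, 1 of 64, 11 of 94 and 13 of 132.

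Without these cells the order held in 3 of 4 mice, at 907.8 against 556.2 CPM, 408.7 against 236.2 CPM and 339.5 against 264.7 CPM, and projection mouse 2 was level at 204.8 against 208.8 CPM. Vgf was higher with Bdnf in 4 of 4 mice either way, at 66.33, 56.25, 40.96 and 33.33 CPM against 47.3, 30, 10.34 and 12.22 CPM over all Synpr-low cells. Ntrk2 was higher in 2 of 4 over all Synpr-low cells and in 3 of 4 without those with deep cortical genes. Over the thinned cells of each of 8 mouse and Synpr class groups, Spearman's rho of Bdnf and Nrn1 was 0.171 to 0.643, with a median of 0.288, given as a description since the cells of a group share animal and plates.

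**Figure D5:**
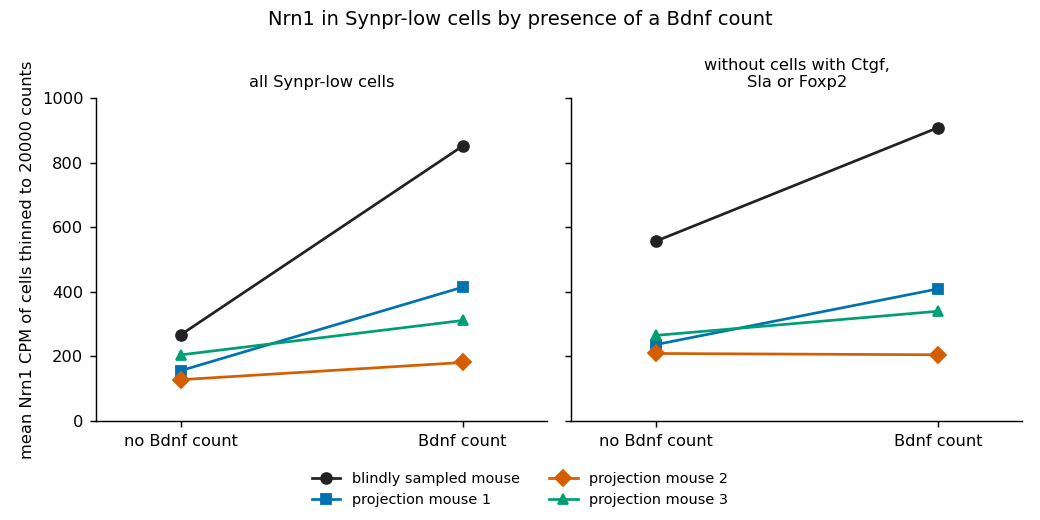
Mean Nrn1 CPM (y axis, linear, from 0) in Synpr-low cells thinned to 20000 counts, without and with a Bdnf count, 1 line per mouse, for all Synpr-low cells (left) and without cells at 20 CPM or more of Ctgf, Sla or Foxp2 (right). Every line rises on the left, and on the right 3 lines rise and that of projection mouse 2 is level. Synpr-low cells pool Slc30a3-only cells and neither, and the part of that mix was not tested.

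A list of 73 other genes of neurotrophin signaling, 69 with a row, was followed in the same fits. For the Synpr limit 64 were tested, of which 6 were higher and 3 lower in Synpr-high cells, beside the 8.82% of all genes, and the median log2 fold change was 0.07 beside 0.00 over all genes. The largest rises were those of Cadps2 and Chgb. Cadps2, which promotes release of dense-core vesicles including those with Bdnf, was at 294.1 ± 43.28 against 45.21 ± 8.60 CPM (log2 fold change 2.70, adjusted p = 1.6e-05). Chgb, the granule protein chromogranin B, was at 3291 ± 619.7 against 993.5 ± 255.6 CPM (1.73, adjusted p = 0.00044).

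Higher as well were Slitrk1, a synaptic adhesion protein of the Slitrk family (1.17), the Nogo receptor Rtn4r, which can pair with p75 (0.79), the receptor phosphatase Ptprs (0.56) and Ngfrap1, an adaptor of p75 (0.50). Lower were the sorting receptors Sorcs1 (-2.81) and Sorl1 (-1.35), of the family of sortilin, and the kinase subunit Pik3r1 (-0.62). Sorl1 stood at 68.53 ± 10.73 CPM in Synpr-high and 174.8 ± 33.71 CPM in Synpr-low sums. Sorcs1 was scarce, at 2.73 ± 1.97 and 17.27 ± 11.09 CPM, and 1 of 4 mice ran against the direction. Proteases, Ras-pathway kinases and most adaptors of the list did not pass.

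By the Slc30a3 limit, 3 of 63 genes passed, beside 3.65% of all genes, with Sorl1 higher (0.77) and Cadps2 (-1.91) and Chgb (-0.997) lower in Slc30a3-high cells. Synpr-only against Slc30a3-only cells called Cadps2 (2.56), Chgb (1.56) and Ngfrap1 (0.57) higher and Sorcs1 (-2.91) and Sorl1 (-1.38) lower, 5 of 67 tested beside 4.76% of all genes. Synpr-only against neither called 7 of 67 beside 5.67%, which added Lingo1 (1.41), a partner of Rtn4r, and the transcription factor Mef2c (0.60) to Cadps2, Chgb, Rtn4r and Ptprs on the higher side, with Sorl1 lower. Slc30a3-only against neither called 0 of 67 beside 0.461%.

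Several of these genes passed between labels. In RSC-labeled against LEC-labeled cells Cadps2 (1.65), Chgb (0.94), Slitrk1 (1.07) and Nras (0.71) were higher and Sorcs1 (-2.93) lower, 5 of 65 tested beside 3.95% of all genes. Chgb was at 3062 ± 270.3 CPM in RSC-labeled, 1592 ± 117.4 CPM in LEC-labeled and 2136 ± 194.6 CPM in unlabeled cells (SD, n = 3). RSC-labeled cells also passed against unlabeled cells for Cadps2 (0.92) and Chgb (0.52), beside 1.63% of all genes. Within either Synpr class 0 of 62 passed between the labels.

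Immediate early genes, which neuronal activity and cell handling both induce, were given beside the members because Bdnf, Nrn1 and Vgf respond to activity. Of 12 listed, 11 were tested, and 0 passed for the Synpr or the Slc30a3 limit. All 11 log2 fold changes were above 0 for Synpr-high cells (median 0.57) and all were below 0 for Slc30a3-high cells (median -0.60), beside all-gene medians of 0.00. Both limits split largely the same cells, so these signs are not independent. Arc, a postsynaptic early gene, had the lowest adjusted p among them (116.0 ± 56.48 against 43.24 ± 19.41 CPM, log2 fold change 1.43, adjusted p = 0.060). The summed level of the 12 genes ranged from 426.3 to 1444 CPM in Synpr-high and from 347.0 to 900.6 CPM in Synpr-low sums. Over the thinned cells of the 8 mouse and Synpr class groups, Spearman's rho of Bdnf had low medians with these genes. It was 0.14 with Fos (-0.076 to 0.281), 0.098 with Nr4a1 (-0.007 to 0.309) and 0.032 with Arc (-0.215 to 0.148). The part of the early genes in the Bdnf difference was not tested.

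Genes whose level moved most like a member were ranked by Pearson's r over 14 sums of the crossed classes, each less its mouse's mean, among 8628 genes. The sums share mice and libraries, so these are descriptions. Nearest to Bdnf were Dner (0.967), a Notch ligand of neurons, Fstl4 (0.967), a secreted protein of the follistatin family, 9530059O14Rik (0.959), Akr1b10 (0.946), an aldo-keto reductase, and the nuclear RNA Malat1 (0.941). Nearest to Ntrk3 were Zrsr2 (0.965), Mrps28 (0.936), Fam57b (0.935) and Gas5 (0.919). For Nrn1, added after its values were seen, the nearest gene was Slc30a3 (0.967), which defines the classes, then Brp44 (0.945), Pitpnm2 (0.902), Gm8203 (0.899) and Osr1 (0.896).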

How the data were processed

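Single cells were captured by hand from microdissected claustrum and sequenced as barcoded 3′ tags. Per the study's methods, the authors aligned reads with STAR, and the submitters' processing notes name the build NCBIM37. The authors deposited gene counts per cell without normalization, with blind cells and projection cells in separate tables. The study's methods speak of depth in reads per cell and do not say whether copies were collapsed to molecules, so the deposited counts may be reads. The counting strand is not given in the sources used here. How doublets were treated is not given either, and no caller was run on hand-picked cells. Cell barcodes repeat between plates by design, with 368 distinct barcodes of which 343 occur in more than 1 plate, so cells were told apart by plate and barcode.

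ERCC spike-in rows, which the deposited counts include, were taken out here before totals were made. Cells without a count of Snap25 (27) or, among the rest, of Slc17a7 (74) were left out, which kept 90.9%. Coordinates and sequences are from GRCm38 and were not mixed with the build of the counts. The tables share 16575 genes, and a gene with a row in 1 table was set to 0 in the other. Counts were summed per mouse and class (sums of at least 5 cells) and tested with edgeR 4.0.16 quasi-likelihood fits in R 4.3.3 (TMM, filterByExpr, Benjamini-Hochberg over all genes tested, threshold 0.05), with mice and not cells as replicates. The 3 plates of the blindly sampled mouse are 1 replicate. Labeled cells came from 3 mice, and RSC, LEC and unlabeled sums were fitted together, as were the 4 crossed classes and the 4 label and class groups. Alternatives were a mouse block, RLE factors, DESeq2 1.42.0, limma 3.58.1 on log2 of mean CPM over cells plus 1, other limits, thinning to 20000 counts (91.7% of cells), and leaving out mice, cells or a plate. The edgeR step was tested on simulated data before use.

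The sums pair by animal, as same-mouse sums come from the same animal. The median correlation of their deviations from the class means was 0.176 within a mouse and -0.0953 between mice for the Synpr classes, 0.18 and -0.0783 for the Slc30a3 classes, 0.144 and -0.0808 for the crossed classes, and 0.0356 and -0.0205 for the labels. The blocked value is given where it changes a call.

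Members, gene lists and tests were chosen with earlier results of these data known. The text names every member, the genes of the signaling list past the threshold (at most 10 per comparison) and the 5 genes most like each member that passed, of which 1 is not reported here. Shares carry exact Clopper-Pearson 95% intervals.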

Additional observations from a re-analysis of the deposited data

Results flagged for a closer look

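In groups of 4 mice, 3 of 42 values tested had an end mouse set apart by Dixon's criterion, where chance alone flags about 1 in 20. Projection mouse 3 was that mouse each time. Ntf3 was highest in its Synpr-high cells at 5.01 CPM and in its Synpr-only cells at 5.26 CPM, values that share most of their cells. Ntrk2 was lowest in its Slc30a3-low cells at 234.0 CPM, where the other mice lay between 259.5 and 264.4 CPM.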

How the results depend on the processing

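Mice were few, so most limits below come from leaving 1 out. Over the 6 members in all comparisons, 830 values under an alternative kept direction and side of the threshold, 21 came to pass, 17 no longer passed and 33 changed sign. The cause was not tested. The replicate block (mouse) raised the members called for the Slc30a3 limit from 0 to 3 and for Slc30a3-only against neither from 0 to 1, and changed no other call beyond those given with the results. Pairing by mouse also raised the genes called over the whole table for the Synpr limit from 1203 to 1995 and for the Slc30a3 limit from 493 to 1044.

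Leaving out 1 mouse gave 1 to 3 members called for the Synpr limit (2 with all), 0 to 2 for the Slc30a3 limit, 0 to 3 for Synpr-only against Slc30a3-only (2 with all) and 1 to 2 for Synpr-only against neither (1 with all). Over all genes these fits called 545 to 1581, 108 to 646, 223 to 996 and 316 to 1224 in that order, of 13239 to 15805 tested. Thinned cells gave 1 for the Synpr limit (beside 1026 of 10086 genes) and 0 for Synpr-only against Slc30a3-only (616 of 10368). Unlabeled cells alone gave 1 for the Synpr limit (601 of 11423) and 1 for Slc30a3-only against neither (123 of 14083). For the Slc30a3 limit RLE gave 1, DESeq2 gave 2, the genes that both mouse tables hold gave 1 and cells without Ctgf, Sla or Foxp2 gave 2. Beside these stood 501 of 13495, 967 of 13495, 506 of 13305 and 589 of 13231 genes. For Synpr-only against Slc30a3-only limma, a Synpr limit of 100 CPM, a Slc30a3 limit of 10 CPM and cells without Ctgf, Sla or Foxp2 each gave 1. The all-gene counts were 681 of 14329, 424 of 12831, 412 of 12760 and 544 of 13398. For Synpr-only against neither DESeq2 and a Slc30a3 limit of 50 CPM each gave 2, beside 1460 of 14329 and 1133 of 15840 genes. Between labels, over all cells and within classes, 0 members passed under every alternative run.

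Signs that turned were all of differences that had not passed. Leaving out 1 mouse at a time, the log2 fold change ranged from -0.151 to 0.148 for Vgf by Synpr, from -0.067 to 0.032 for Ntrk2 by Slc30a3, from -0.004 to 0.064 for Ntrk2 and -0.283 to 0.384 for Bdnf between RSC and LEC labels and between LEC-labeled and unlabeled cells respectively, from -0.028 to 0.333 for Nrn1 in Synpr-only cells against neither, and, between labels within Synpr-high cells, from -0.431 to 0.003 for Bdnf, -0.114 to 0.191 for Nrn1, -0.356 to 0.204 for Ntrk2 and -0.229 to 0.102 for Vgf. Within Synpr-low cells it was -0.039 to 0.355 for Ntrk2 and -0.287 to 0.067 for Vgf. For Ntrk3 it was -0.606 to 0.028 between RSC and LEC labels, -0.74 to 0.135 between RSC-labeled and unlabeled cells and -0.39 to 0.205 between LEC-labeled and unlabeled cells. For Vgf it was -0.312 to 0.006 between RSC and LEC labels, -0.211 to 0.632 between RSC-labeled and unlabeled cells, -0.039 to 0.209 for Synpr-only against Slc30a3-only cells and -0.241 to 0.085 for Synpr-only against neither. The first turned without projection mouse 1, the second and the Nrn1 difference against neither without the blindly sampled mouse. Ntrk2 was also at 0.018 by Slc30a3 without cells with Ctgf, Sla or Foxp2 and at 0.096 in unlabeled cells, and between labels at -0.002 without projection mouse 1, -0.006 with limma and -0.032 without the plate with both labels, a setting chosen after seeing the data. Without cells with Ctgf, Sla or Foxp2, Bdnf was at -0.038 and Nrn1 at -0.072 in LEC-labeled against unlabeled cells, Nrn1 at -0.747 in Synpr-only cells against neither and Bdnf at -0.136 in Slc30a3-only cells against neither. Vgf in Synpr-only against Slc30a3-only cells was also at -0.023 after thinning, -0.052 in unlabeled cells, -0.037 without the plate with both labels and -0.009 at a Slc30a3 limit of 10 CPM. Between labels it was at 0.066 within Synpr-high cells without that plate and at 0.061 within Synpr-low cells at a Synpr limit of 400 CPM.

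Over all genes, the count for the Synpr limit ranged from 545 (without projection mouse 3) to 1995, for the Slc30a3 limit from 96 (unlabeled cells) to 1044, and between RSC and LEC labels from 59 (without projection mouse 3) to 1145 around 552. Between RSC-labeled and unlabeled cells it ranged from 8 (without projection mouse 2) to 663 around 228, for Synpr-only against Slc30a3-only from 223 to 1167 around 682 and against neither from 316 to 1460 around 813 (both lowest without projection mouse 3), for Slc30a3-only against neither from 2 (without cells with Ctgf, Sla or Foxp2) to 262 around 66, and between labels within Synpr-low cells from 0 (without projection mouse 2) to 288 around 24. From the label comparisons on, the highest count was that of DESeq2. In the last comparison the median log2 fold change of all genes was -0.04, -0.32 with limma, and the split of higher and lower calls went from 18 and 6 to 13 and 45.

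Thinning lowered the shares of cells with a count to 65.83% for Bdnf in Synpr-low cells, 86.65 and 88.54% for Ntrk2, 33.25 and 41.94% for Ntrk3, 73.79 and 73.98% for Nrn1, and 38.11 and 34.56% for Vgf in Synpr-high and Synpr-low cells. Ntf3 was too scarce for any statement on its class differences.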
